A study of Mus musculus with 32 samples.

Results

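Ligands, receptors and 1 induced target of the transforming growth factor beta (TGF-beta), activin and bone morphogenetic protein (BMP) pathways were followed in mouse embryonic fibroblasts that carried an Oct-1 mutation or were wild type, with and without irradiation. The 10 genes, chosen by symbol with earlier results of these data known, were Tgfb1, Tgfb2, Tgfb3, Tgfbr1, Tgfbr2, Inhba, Inhbb, Tgfbi, Bmpr1b and Bmp4. They were read through every probe set annotated to one of them alone, 25 of the 45137 probe sets other than controls on 2 Affymetrix array types, here called array A and array B. After probe sets with a mean in the lowest 40% of their array type were left out, 21 of 27083 remained and all 10 genes were measured, 18 probe sets being on array A and 3 on array B.

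RNA came from 16 extracts of early passage primary fibroblasts, each hybridised to both array types, with 4 replicates in each of 4 groups. The groups were Oct-1 mutant irradiated, Oct-1 mutant unirradiated, wild type irradiated and wild type unirradiated. Pou2f1 is the gene of Oct-1, a transcription factor with a POU domain. The sources used here do not give the mutant allele, the strain, the number of embryos behind a culture, their age, the radiation dose or the time after it, and the level of Pou2f1 was not analysed here. Labels do not say that replicates came from separate cultures or embryos, so p-values describe the spread between these samples, which may be technical.

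Values are log2 probe set levels as deposited. The median of an array was 6.16 to 6.28 for array A and 3.67 to 3.78 for array B. The title numbers of the arrays fall into 2 runs: replicates 1 and 2 of every group belong to the first number run and replicates 3 and 4 to the second. Both runs hold all 4 groups, and the first principal component of the deviations from the group means, accounting for 61.75% of the variance of array A and 49.6% of that of array B, separated them. Values within a run are given beside a number of the results below. Of 14 fibroblast markers 13 were matched and all 13 were measured, while 0 of 6 endothelial and 0 of 6 skeletal muscle markers passed the filter. Of the other lists, 5 of 6 neural and glial, 3 of 7 epithelial, 3 of 8 macrophage and blood and 2 of 8 cartilage and bone markers passed.

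Ligands of this family are secreted dimers that bring together type II and type I receptor kinases. The type I receptor then phosphorylates receptor-regulated SMAD proteins, which enter the nucleus with Smad4 and act on target genes. TGF-beta and activin ligands work mainly through Smad2 and Smad3, and BMP ligands through Smad1, Smad5 and Smad9. In fibroblasts TGF-beta signalling is best known for raising matrix production and contractility, and BMP signalling is known for inducing the Id genes.

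Promoter windows of 300 bases, 250 before the annotated start and 50 after it, are shown for the 5 genes with a called change, as context for the comparisons below. The sequences are from RefSeq on GRCm38.p6, read 5' to 3' on the gene's strand. Inhbb lies at chr1:119422199-119422498 on the minus strand, Tgfbi at chr13:56609336-56609635 on the plus strand and Tgfbr1 at chr4:47352972-47353271 on the plus strand. Tgfbr2 lies at chr9:116175314-116175613 on the minus strand and Bmpr1b at chr3:141982215-141982514 on the minus strand. Of these, Tgfbr1 has 1 further window and Bmpr1b has 2, not printed. Capitals mark matches on either strand to the SMAD box, CAGAC, or to the p53 half-site.
Inhbb: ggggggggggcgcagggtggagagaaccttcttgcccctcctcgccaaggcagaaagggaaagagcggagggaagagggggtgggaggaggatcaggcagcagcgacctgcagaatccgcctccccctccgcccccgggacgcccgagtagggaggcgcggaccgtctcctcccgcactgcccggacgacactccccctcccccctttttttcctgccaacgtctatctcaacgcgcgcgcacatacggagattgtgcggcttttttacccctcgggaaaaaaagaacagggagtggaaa
Tgfbi: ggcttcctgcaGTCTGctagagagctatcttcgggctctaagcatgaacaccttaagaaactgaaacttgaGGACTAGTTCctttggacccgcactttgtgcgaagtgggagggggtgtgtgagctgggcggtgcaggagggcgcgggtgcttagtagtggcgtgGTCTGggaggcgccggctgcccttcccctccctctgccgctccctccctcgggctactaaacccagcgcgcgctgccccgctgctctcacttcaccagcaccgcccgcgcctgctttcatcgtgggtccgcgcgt
Tgfbr1: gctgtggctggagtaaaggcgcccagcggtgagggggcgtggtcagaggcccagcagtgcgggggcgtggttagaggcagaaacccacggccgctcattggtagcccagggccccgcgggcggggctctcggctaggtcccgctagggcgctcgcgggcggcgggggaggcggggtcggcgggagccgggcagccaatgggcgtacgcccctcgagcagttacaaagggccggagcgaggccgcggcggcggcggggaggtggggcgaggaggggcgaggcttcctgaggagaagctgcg
Tgfbr2: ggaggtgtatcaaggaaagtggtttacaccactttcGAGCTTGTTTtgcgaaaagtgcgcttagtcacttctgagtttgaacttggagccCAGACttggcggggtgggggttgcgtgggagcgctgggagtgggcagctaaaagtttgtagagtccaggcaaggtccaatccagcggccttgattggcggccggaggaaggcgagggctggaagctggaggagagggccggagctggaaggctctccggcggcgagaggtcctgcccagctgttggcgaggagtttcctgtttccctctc
Bmpr1b: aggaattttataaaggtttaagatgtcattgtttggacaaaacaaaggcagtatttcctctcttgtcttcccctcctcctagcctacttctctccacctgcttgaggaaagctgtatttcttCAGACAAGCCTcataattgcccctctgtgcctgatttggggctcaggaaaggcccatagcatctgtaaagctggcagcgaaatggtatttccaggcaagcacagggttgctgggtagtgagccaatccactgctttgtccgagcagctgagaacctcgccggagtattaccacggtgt
All genes but Tgfb3 had at least 1 window, 12 windows of 9 genes in all. The octamer ATGCAAAT, the element that Oct-1 is best known to bind, was in 0 of the 12 windows on either strand and in 1.74% of the 32851 mouse promoter windows searched. The SMAD box was in 6 of 12 windows, against 49.6% of all windows, and the p53 half-site in 3 of 12, against 8.36%. Counted from the start site, the half-site began at -179 in Tgfbi, at -214 in Tgfbr2 and at -127 in Bmpr1b, where it overlapped the SMAD box that began at -128. Such matches describe letters in these windows and no more.

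Differences were tested with limma on all filtered probe sets of an array type, and a probe set was called at a Benjamini-Hochberg adjusted p under 0.05. Shares of all probe sets, here and below, pool both array types, while 18 of the 21 member probe sets were on array A. Calls were more frequent on array A in the comparisons averaged over the other factor. For genotype an unadjusted limma p of 0.0018 gave an adjusted p of 0.0237 on array A, and 0.00181 gave 0.0749 on array B. For irradiation 0.000377 gave 0.00693 on array A, and 7.69e-05 gave 0.00771 on array B. There the pooled shares lie below those of array A, which are not given. Irradiation changed 2 of the 21 measured member probe sets in Oct-1 mutant cells, 1 up and 1 down, where 2.67% of all 27083 probe sets were called. In wild type cells it raised 1 of 21, against 2.31% of all. Averaged over both genotypes, irradiation raised 1 and lowered 2 of the 21, against 7.51% of all. The median difference of the 21 was -0.06 in the mutant, -0.15 in wild type and -0.11 on average, against 0.02, 0.01 and 0.01 over all probe sets.

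The Oct-1 mutant was compared with wild type in each irradiation state. It was higher in 2 and lower in 0 of 21 without irradiation, where 2.16% of all probe sets were called, and higher in 4 and lower in 1 with irradiation, against 2.09% of all. Averaged over irradiation it was higher in 6 and lower in 1, against 6.25% of all. The 7 probe sets belong to 4 genes, 4 of them to Tgfbi, so they are not independent. Because the genes were chosen with earlier results known, these counts are no test of the set against all probe sets. The median difference of the 21 was 0.04 without irradiation, 0.20 with it and 0.02 on average, against 0.01, 0.02 and 0.01 over all probe sets. Whether irradiation acted differently in the 2 genotypes was tested directly: limma called 0 of 21 member probe sets and 0% of all. At an unadjusted p under 0.05, 1 of the 21 and 394 of all probe sets (1.45%) passed.

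With the replicate number as a block more probe sets were called, among the members and among all alike. The member count was 4 of 21 for irradiation in wild type, against 6.11% of all probe sets, and 5 of 21 for the genotype difference without irradiation, against 6.42%. It was 6 of 21 for irradiation averaged over genotypes, against 14.9%, and 12 of 21 for the genotype difference averaged over irradiation, against 13.9%. Members called with the block and not without it are given as such below.

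**Figure D1:**
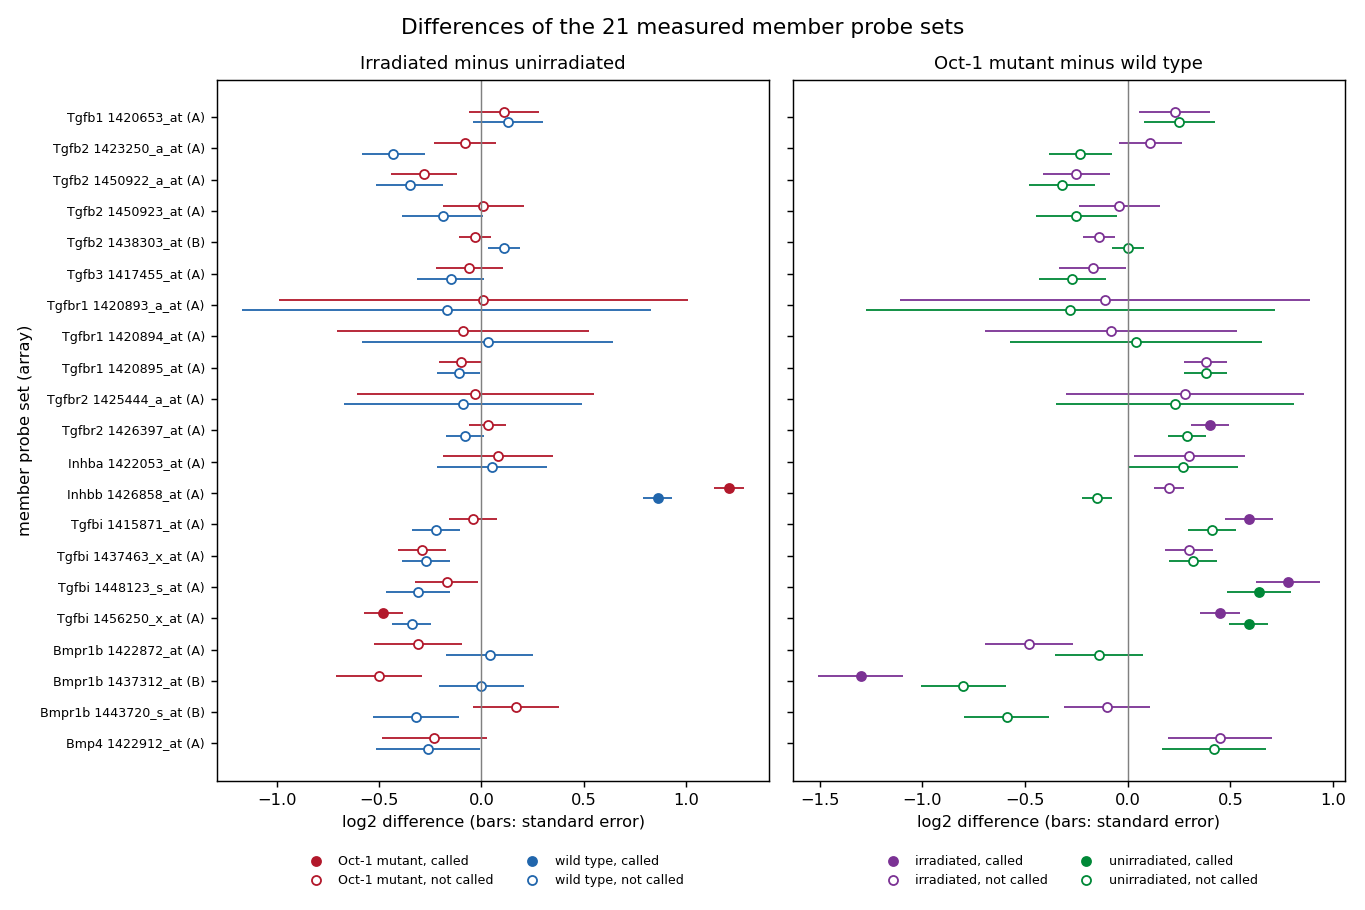
Log2 differences of the 21 measured member probe sets, irradiated minus unirradiated (left, in Oct-1 mutant and in wild type) and Oct-1 mutant minus wild type (right, irradiated and unirradiated). Points are limma estimates, bars 1 standard error, and filled points were called; Inhbb stands out on the left at 1.21 and 0.86, and the 4 Tgfbi probe sets lie right of 0 and Bmpr1b on array B left of 0 on the right.

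Inhbb encodes the beta B subunit that forms activin B, a ligand of the activin type II receptors. It was the one member that irradiation raised. Its probe set 1426858_at had 9.41, 9.34, 9.37 and 9.20 in irradiated Oct-1 mutant arrays, against 8.05, 8.13, 8.22 and 8.06 in unirradiated mutant arrays. It had 9.22, 9.10, 9.10 and 9.09 in irradiated wild type arrays, against 8.22, 8.38, 8.29 and 8.17 in unirradiated wild type arrays. All 8 irradiated values lay above all 8 unirradiated ones, with a gap between them in both genotypes.

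In Oct-1 mutant cells Inhbb rose 2.32-fold (log2 1.21, SE 0.0725, limma adjusted p = 1.3e-07). In wild type cells it rose 1.82-fold (log2 0.86, SE 0.0725, adjusted p = 3.31e-06). Averaged over genotypes the rise was 2.05-fold (log2 1.04, SE 0.0513, adjusted p = 3.25e-09), and it was 1.07 in replicates of the first run and 1.00 in those of the second. The call was kept in all 26 alternative fits, in which the adjusted p reached at most 6.1e-05. The rise in mutant cells exceeded that in wild type cells by 0.35 (SE 0.103), which had an unadjusted p of 0.00349 and an adjusted p of 1 over all probe sets, so this difference was not called. A further Inhbb probe set, 1426859_at, had a mean of 4.20, below the 4.97 that the filter asked for on array A. Without the filter its averaged irradiation difference was 0.27 (SE 0.0943) with an adjusted p of 0.119.

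Inhba encodes the beta A subunit of activin A. Its probe set 1422053_at had 10.84, 11.19, 11.54 and 11.48 in irradiated mutant arrays, against 10.78, 10.79, 11.48 and 11.68 in unirradiated mutant arrays. It had 10.70, 10.55, 11.33 and 11.28 in irradiated wild type arrays, against 10.43, 10.55, 11.25 and 11.42 in unirradiated wild type arrays. The groups overlapped, and the runs did not: values of the second number run (11.25 to 11.68) all lay above those of the first (10.43 to 11.19).

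For Inhba irradiation gave an averaged difference of 0.07 (SE 0.19, adjusted p = 0.881), beside 1.04 for Inhbb. Mutant minus wild type gave 0.29 (SE 0.19, adjusted p = 0.41), which was 0.35 within the first run and 0.23 within the second. All 8 pairs of the same replicate number and irradiation state were higher in the mutant, and with the replicate block the adjusted p was 0.00288 (0.0339 for irradiated arrays alone). The second Inhba probe set, on array B, had a mean of 2.27 and did not pass the filter.

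**Figure D2:**
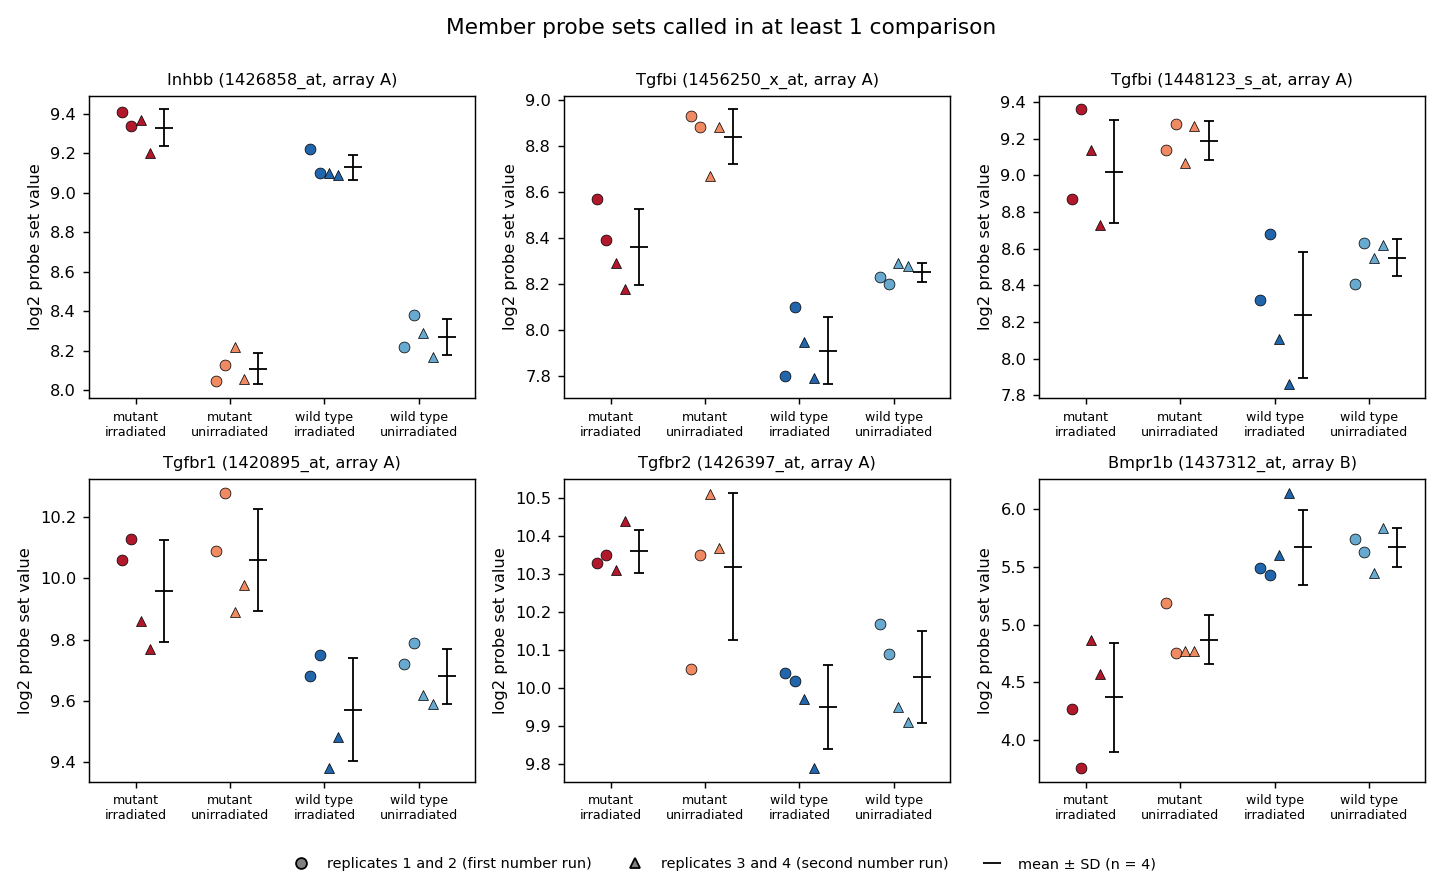
Log2 values of 6 member probe sets by group, with a point for each of the 4 replicates (circles for the first number run, triangles for the second) and the mean ± SD beside them. Irradiated Inhbb values (9.09 to 9.41) stand above unirradiated ones (8.05 to 8.38), and within each irradiation state the Oct-1 mutant values stand above wild type for Tgfbi and Tgfbr1 and below it for Bmpr1b.

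The 3 TGF-beta ligands showed no called difference when all 16 extracts were fitted without the block. Tgfb1, the main isoform in most tissues, averaged 9.02 ± 0.134 in irradiated mutant, 8.92 ± 0.317 in unirradiated mutant, 8.80 ± 0.303 in irradiated wild type and 8.67 ± 0.268 in unirradiated wild type arrays (SD, n = 4 each). Its irradiation difference was 0.12 (SE 0.123, adjusted p = 0.616) and its genotype difference 0.24 (SE 0.123, adjusted p = 0.266), and the block brought the adjusted p of the second to 0.0148. Tgfb3, the isoform known for its part in palate fusion, averaged 9.99 ± 0.182 in irradiated mutant, 10.04 ± 0.369 in unirradiated mutant, 10.16 ± 0.23 in irradiated wild type and 10.31 ± 0.188 in unirradiated wild type arrays. Its genotype difference was -0.22 (SE 0.116, adjusted p = 0.275, and 0.0188 with the block) and its irradiation difference -0.11 (SE 0.116, adjusted p = 0.645). The groups of both genes overlapped.

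Tgfb2, an isoform needed in heart and craniofacial development, was read by 4 probe sets, whose differences were not all alike. Probe set 1450922_a_at had 6.75, 6.84, 7.14 and 7.07 in irradiated mutant arrays, against 7.01, 7.07, 7.35 and 7.50 in unirradiated mutant arrays. It had 7.10, 7.06, 7.27 and 7.38 in irradiated wild type arrays, against 7.21, 7.29, 7.90 and 7.81 in unirradiated wild type arrays. Each irradiated value lay below the unirradiated value of the same genotype and replicate number, and each mutant value below its wild type counterpart, although the groups as a whole overlapped.

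For this probe set the averaged irradiation difference was -0.32 (SE 0.115, adjusted p = 0.0861), and with the replicate block the adjusted p was 0.00189. It was -0.21 within the first number run (adjusted p = 0.168) and -0.43 within the second (adjusted p = 0.012), and without replicate 1 of unirradiated wild type the adjusted p was 0.0458. The averaged genotype difference was -0.29 (SE 0.115, adjusted p = 0.135, and 0.0038 with the block), with -0.25 within the first run (adjusted p = 0.123) and -0.33 within the second (adjusted p = 0.0274). Probe set 1423250_a_at differed by -0.43 with irradiation in wild type (SE 0.153, adjusted p = 0.162, and 0.0048 with the block) and by -0.08 in the mutant (SE 0.153, adjusted p = 0.86). The difference between these, 0.34 (SE 0.216), had an adjusted p of 1. In wild type this probe set gave -0.28 within the first run (adjusted p = 0.289) and -0.58 within the second (adjusted p = 0.0151), and 1450922_a_at gave -0.17 (adjusted p = 0.56) and -0.53 (adjusted p = 0.0427). With the block, 1450922_a_at was also called for irradiation in wild type (-0.35, adjusted p = 0.0198) and for genotype without irradiation (-0.32, adjusted p = 0.0292), and 1423250_a_at for irradiation averaged over genotypes (-0.26, adjusted p = 0.00629, and 0.0416 within the second run alone). Probe sets 1450923_at and 1438303_at, the second on array B, had averaged irradiation differences of -0.09 (SE 0.139) and 0.04 (SE 0.0548), neither called in any fit.

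Each TGF-beta receptor had 1 measured probe set that was called higher in the mutant. Tgfbr1 is the type I receptor kinase, and its probe set 1420895_at had 10.06, 10.13, 9.86 and 9.77 in irradiated mutant arrays, against 9.68, 9.75, 9.38 and 9.48 in irradiated wild type arrays. It had 10.09, 10.28, 9.89 and 9.98 in unirradiated mutant arrays, against 9.72, 9.79, 9.62 and 9.59 in unirradiated wild type arrays. Within each irradiation state every mutant value was above every wild type value.

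Averaged over irradiation, this Tgfbr1 probe set was 1.3-fold higher in the mutant (log2 0.38, SE 0.0742, adjusted p = 0.00322), in 8 of 8 number-matched pairs, by 0.40 in the first run and 0.36 in the second. Each state alone gave 0.38 as well, with adjusted p of 0.0563 for irradiated and 0.0596 for unirradiated arrays, and of 0.000379 and 0.000426 with the block. Irradiation gave differences of -0.10 in the mutant and -0.11 in wild type, neither called.

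Tgfbr2 is the type II receptor that binds the ligand first. Its probe set 1426397_at had 10.33, 10.35, 10.31 and 10.44 in irradiated mutant arrays, against 10.04, 10.02, 9.97 and 9.79 in irradiated wild type arrays. It had 10.05, 10.35, 10.51 and 10.37 in unirradiated mutant arrays, against 10.17, 10.09, 9.95 and 9.91 in unirradiated wild type arrays. Irradiated groups did not overlap, whereas the first unirradiated mutant replicate lay within the wild type range.

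Tgfbr2 was 1.27-fold higher in the mutant on average (log2 0.35, SE 0.0649, adjusted p = 0.00233), in 7 of 8 number-matched pairs. That difference was 0.19 within the first number run (adjusted p = 0.155) and 0.50 within the second (adjusted p = 0.00139). With irradiation it was 0.40 (SE 0.0918, adjusted p = 0.0199), and the call was lost without replicate 4 of the irradiated mutant or of the irradiated wild type group, with an adjusted p of up to 0.0697. Without irradiation it was 0.29 (adjusted p = 0.108).

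The other receptor probe sets followed the number run. Probe set 1420893_a_at of Tgfbr1 read 3.93 to 5.29 over the 8 extracts of the second run and 6.33 to 8.05 over the 8 of the first. Probe set 1420894_at of the same gene read 5.30 to 6.06 in the second run and 6.13 to 7.83 in the first, and 1425444_a_at of Tgfbr2 6.03 to 6.94 and 7.53 to 8.24. The mean of the second run minus that of the first was -2.58, -1.48 and -1.52, and the runs did not overlap in any of the 3.

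Over all members, 5 of 21 probe sets did not overlap between the runs, against 5.7% of all measured probe sets. The other 2 were higher in the second run, Inhba (0.70) and probe set 1450923_at of Tgfb2 (0.45). In the 3 receptor probe sets the averaged genotype and irradiation differences had standard errors of up to 0.705 and were not called in the fit without a block. Probe set 1420893_a_at averaged 6.04 in irradiated mutant and 6.15 in irradiated wild type arrays, and 6.03 and 6.32 without irradiation. For 1420894_at these means were 6.42, 6.50, 6.51 and 6.47, and for 1425444_a_at 7.33, 7.05, 7.37 and 7.14. Within the second run alone 1425444_a_at of Tgfbr2 was higher in the mutant by 0.62 (adjusted p = 0.00399), against -0.12 in the first. The remaining Tgfbr2 probe set, 1422019_at, had a mean of 3.31 and did not pass the filter.

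**Figure D3:**
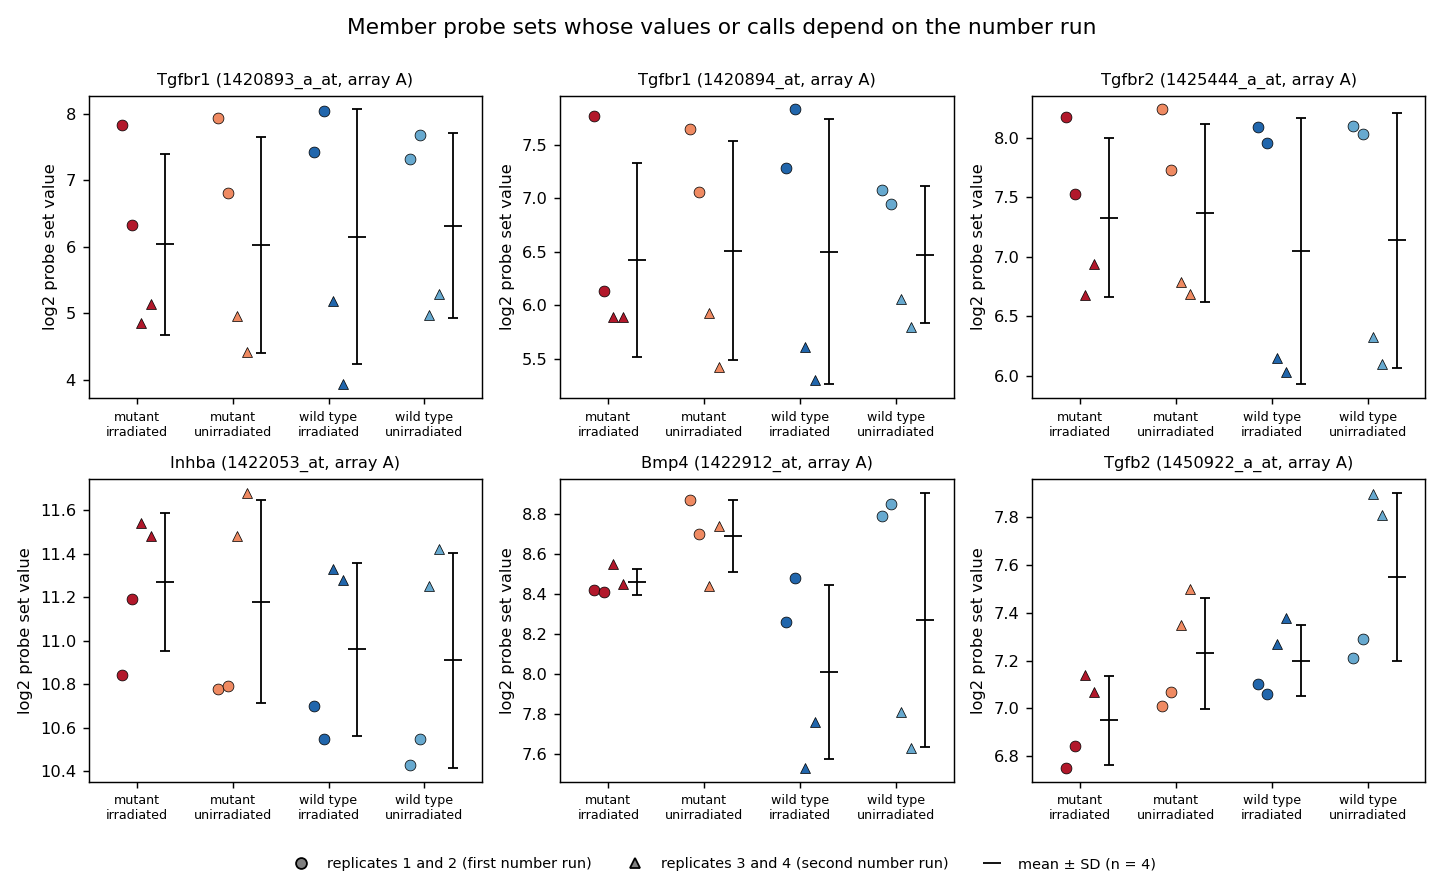
Log2 values of 6 member probe sets by group, with circles for replicates 1 and 2 (first number run), triangles for replicates 3 and 4 (second number run) and the mean ± SD of 4 replicates. For the 3 receptor probe sets every triangle lies below every circle, for Inhba every triangle lies above, and the wild type triangles of Bmp4 (7.53 to 7.81) lie apart from its other points.

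Among the BMP genes, Bmpr1b, a type I BMP receptor known for its part in cartilage formation in the limb, was lower in the mutant on array B. Its probe set 1437312_at had 4.27, 3.76, 4.87 and 4.57 in irradiated mutant arrays, against 5.49, 5.43, 5.60 and 6.14 in irradiated wild type arrays. It had 5.19, 4.75, 4.77 and 4.77 in unirradiated mutant arrays, against 5.74, 5.63, 5.45 and 5.84 in unirradiated wild type arrays. All 8 mutant values lay below all 8 wild type values.

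Bmpr1b was lower by 1.05 on the log2 scale in the mutant when averaged over irradiation (-1.05, SE 0.147, a ratio of 0.484, adjusted p = 0.00141), in 8 of 8 number-matched pairs. The first run alone gave -1.08 (adjusted p = 0.0329) and the second -1.01 (adjusted p = 0.0583). With irradiation it was -1.30 (SE 0.208, adjusted p = 0.0111), 0.107 when only the irradiated groups were fitted, and 0.0605 and 0.241 within the first and the second run. Without irradiation it was -0.80 (SE 0.208, adjusted p = 0.156). Irradiation gave -0.50 in the mutant (adjusted p = 0.587), with -0.95 within the first run and -0.05 within the second, and 0.00 in wild type, and the difference between these was not called (adjusted p = 0.999). The other Bmpr1b probe sets, 1422872_at on array A and 1443720_s_at on array B, had averaged genotype differences of -0.31 (SE 0.151, adjusted p = 0.226) and -0.34 (SE 0.148, adjusted p = 0.312). For 1443720_s_at the first 2 unirradiated wild type replicates read 6.26 and 6.23, against 5.29 and 5.34 for the other 2.

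Col2a1, the collagen of cartilage and 1 of 2 measured members of 8 cartilage and bone markers, also fell in the mutant (-1.27, SE 0.107, adjusted p = 9.12e-07). The other measured marker, Sox9, a transcription factor of cartilage cells, differed in the opposite direction (0.28, SE 0.0889, adjusted p = 0.0604, and 0.0129 with the block). Over the 7 matched markers of that list the mean level was 4.11 to 4.42 in irradiated mutant, 4.26 to 4.41 in unirradiated mutant, 4.37 to 4.54 in irradiated wild type and 4.33 to 4.47 in unirradiated wild type arrays. Acan, Matn1, Col9a1, Ibsp and Sp7 did not pass the filter. Their part in the Bmpr1b difference was not tested, and in bulk RNA fewer cells of a type cannot be told apart from less RNA per cell.

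Bmp4 encodes a BMP ligand that induces the Id genes. Its probe set 1422912_at had 8.42, 8.41, 8.55 and 8.45 in irradiated mutant arrays, against 8.26, 8.48, 7.53 and 7.76 in irradiated wild type arrays. It had 8.87, 8.70, 8.44 and 8.74 in unirradiated mutant arrays, against 8.79, 8.85, 7.81 and 7.63 in unirradiated wild type arrays. Replicates 3 and 4 of both wild type groups were low, and the remaining values of the genotypes overlapped.

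The averaged genotype difference of Bmp4 was 0.44 (SE 0.18, adjusted p = 0.15), and with the replicate block the adjusted p was 0.0267. It was 0.01 within the first number run (adjusted p = 0.97) and 0.86 within the second (adjusted p = 0.000524). The difference between the runs was not tested. Irradiation gave -0.24 on average (SE 0.18, adjusted p = 0.441).

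Tgfbi encodes a secreted matrix protein induced by TGF-beta, and it was higher in the mutant in all 4 of its probe sets. Probe set 1448123_s_at had 8.87, 9.36, 9.14 and 8.73 in irradiated mutant arrays, against 8.32, 8.68, 8.11 and 7.86 in irradiated wild type arrays. It had 9.14, 9.28, 9.07 and 9.27 in unirradiated mutant arrays, against 8.41, 8.63, 8.55 and 8.62 in unirradiated wild type arrays. All 8 mutant values lay above all 8 wild type values, the nearest being 8.73 and 8.68.

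Probe set 1456250_x_at showed both a genotype and an irradiation difference. It had 8.57, 8.39, 8.29 and 8.18 in irradiated mutant arrays, against 8.93, 8.88, 8.67 and 8.88 in unirradiated mutant arrays. It had 7.80, 8.10, 7.95 and 7.79 in irradiated wild type arrays, against 8.23, 8.20, 8.29 and 8.28 in unirradiated wild type arrays. Irradiated values lay below unirradiated ones within each genotype, and mutant values above wild type ones within each irradiation state.

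Averaged over irradiation, Tgfbi was higher in the mutant by 0.71 in 1448123_s_at (SE 0.109, 1.63-fold, adjusted p = 0.000485). It was higher by 0.52 in 1456250_x_at (SE 0.0674, adjusted p = 9.35e-05), 0.50 in 1415871_at (SE 0.0829, adjusted p = 0.000842) and 0.31 in 1437463_x_at (SE 0.083, adjusted p = 0.0253). In each of the 4 probe sets all 8 number-matched pairs were higher in the mutant. The last call was lost without replicate 4 of the irradiated mutant, unirradiated mutant or irradiated wild type group, or without replicate 2 of irradiated wild type, with an adjusted p of up to 0.0538, and after quantile normalization (0.0504).

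With irradiation 3 Tgfbi probe sets were called for genotype, at 0.78 in 1448123_s_at (adjusted p = 0.00804), 0.59 in 1415871_at (adjusted p = 0.0081) and 0.45 in 1456250_x_at (adjusted p = 0.0133). Fitted on the irradiated groups alone, these had adjusted p of 0.0782, 0.0784 and 0.0884. Without irradiation 1456250_x_at gave 0.59 (adjusted p = 0.00143) and 1448123_s_at 0.64 (adjusted p = 0.0309). The call of 1448123_s_at was lost when any 1 of the 8 unirradiated extracts was left out, with an adjusted p of up to 0.0917. Probe set 1415871_at gave 0.41 (adjusted p = 0.0647, and 0.012 with the block).

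Irradiation lowered Tgfbi in part of its probe sets. In 1456250_x_at the averaged difference was -0.41 (SE 0.0674, adjusted p = 0.00072). It was -0.48 in the mutant (SE 0.0954, adjusted p = 0.00686) and -0.34 in wild type (SE 0.0954, adjusted p = 0.065, and 0.0278 with the block). In 1437463_x_at the averaged difference was -0.28 (SE 0.083, adjusted p = 0.0364), a call lost in 10 of the 16 fits that each left out 1 extract, with an adjusted p of up to 0.0777. It was also lost without a filter (0.0573) and with centred medians (0.0509). The extracts that mattered were replicates 2 and 3 of irradiated mutant, 2, 3 and 4 of unirradiated mutant, 2 and 4 of irradiated wild type and 1, 3 and 4 of unirradiated wild type. Probe set 1448123_s_at gave -0.24 (adjusted p = 0.18, and 0.0492 with the block), and 1415871_at was not called.

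Of 13 measured fibroblast markers, 5 were higher in the mutant on average and 0 lower, against 6.25% of all probe sets called (11 and 0 with the block, against 13.9%). Dcn was higher by 2.01, Lum by 1.46, Fap by 0.76, Pdgfra by 0.49 and Thy1 by 0.49 on the log2 scale. Over the 13 markers the mean level was 11.11 to 11.47 in irradiated mutant, 11.27 to 11.61 in unirradiated mutant, 10.67 to 10.82 in irradiated wild type and 10.84 to 11.00 in unirradiated wild type arrays. With irradiation 4 of the 13 fell on average and 0 rose, against 7.51% of all probe sets called. These 4 were Pdgfra (-0.72), Pdgfrb (-0.56), Twist1 (-0.49) and Prrx1 (-0.42). The part of the fibroblast markers in the Tgfbi and receptor differences was not tested. The calls of Fap and Thy1 were lost on leaving out any 1 of 10 and of 8 extracts, with adjusted p of up to 0.103 and 0.0646. The Fap call was also lost without a filter, with quantile normalization, centred medians, no intensity trend or robust variances (adjusted p of up to 0.0747), and the Thy1 call with centred medians (0.0553). That of Pdgfra was lost within the first run (0.0609), and Lum differed by 0.97 within the first run and by 1.96 within the second. For Fap the extracts were replicates 3 and 4 of irradiated mutant, 1, 3 and 4 of unirradiated mutant, 1, 2 and 4 of irradiated wild type and 1 and 2 of unirradiated wild type. For Thy1 they were replicates 3 and 4 of both mutant groups and 1 and 2 of both wild type groups. Of the other lists, the keratin Krt18 was higher in the mutant by 0.46 among 3 measured of 7 epithelial markers. The neuronal Map2 was lower (-0.80) among 5 measured of 6 neural and glial markers. Of 3 measured of 8 macrophage and blood markers, limma called 0 in the averaged genotype comparison. There 1 had an unadjusted p under 0.05, against 19.1% of all probe sets. That was Lyz2, the lysozyme of macrophages (0.43, SE 0.141, adjusted p = 0.0686, and 0.021 with the block). Within the second run Krt18 and Map2 were not called (adjusted p = 0.118 and 0.158). With the block Nes, the nestin of neural progenitors, was called lower in the mutant as well (-0.29, adjusted p = 0.0123). No marker value was 0 on this scale.

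The rest of the pathway was followed through lists of ligands, receptors, extracellular regulators, SMADs with their regulators, and targets, each gene by its probe set of highest mean. Of 25 other ligands 19 were matched and 7 were measured, and limma called 0 of 7 in each of the 7 comparisons. At an unadjusted p under 0.05, 1 passed for irradiation averaged over genotypes, against 18.3% of all probe sets, and 0 in the other comparisons. The 2 with the lowest p in that comparison were Lefty2 (0.10, SE 0.0435, adjusted p = 0.462), an antagonist of Nodal, and Gdf11 (-0.03, SE 0.0474, adjusted p = 0.788), a relative of myostatin. For the averaged genotype difference they were Lefty1, also a Nodal antagonist (0.11, SE 0.0687, adjusted p = 0.376), and Gdf3 (0.04, SE 0.029, adjusted p = 0.484).

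Of 12 measured receptors and coreceptors of 15, Acvrl1 (ALK1), a type I receptor best known in endothelium, rose with irradiation by 0.58 on average (SE 0.128, 1.5-fold, adjusted p = 0.00693), the 1 call of 12 against 7.51% of all probe sets. It averaged 6.56 ± 0.445 in irradiated mutant, 5.97 ± 0.131 in unirradiated mutant, 6.69 ± 0.242 in irradiated wild type and 6.12 ± 0.159 in unirradiated wild type arrays (SD, n = 4 each). The averaged rise was 0.71 within the first run and 0.45 within the second. Neither genotype alone was called without the block. The mutant gave 0.59 (limma adjusted p = 0.0818), with 0.91 within the first run and 0.27 within the second. Wild type gave 0.58 (adjusted p = 0.103), with 0.51 and 0.64. With the block the adjusted p were 0.0115 and 0.0151. In the averaged genotype comparison limma called 0 of 12, against 6.25% of all probe sets. At an unadjusted p under 0.05, 2 of 12 passed, against 19.1% of all. These were the coreceptor endoglin, Eng (0.26, SE 0.0877, adjusted p = 0.0717, and 0.0146 with the block), and the activin type II receptor Acvr2a (0.27, SE 0.0954, adjusted p = 0.0897, and 0.0444 with the block). With the block the TGF-beta coreceptor Tgfbr3, was called too (0.44, SE 0.248, adjusted p = 0.00275, against 0.402 without the block), also among unirradiated arrays alone (0.53, adjusted p = 0.0184 with the block).

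Of 29 extracellular regulators 26 were matched and 21 were measured. Among these 21, 3 were higher and 1 lower in the mutant on average, where 6.25% of all probe sets were called. With the block 7 were higher and 1 lower, against 13.9% of all. Dcn, the proteoglycan decorin, which binds TGF-beta and is also on the fibroblast list, averaged 8.01 ± 0.675 in irradiated mutant, against 6.24 ± 0.342 in irradiated wild type arrays. Without irradiation it averaged 8.15 ± 0.536 in mutant and 5.89 ± 0.449 in wild type arrays (SD, n = 4 each). It was 4.04-fold higher on average (log2 2.01, SE 0.232, adjusted p = 2.67e-05), by 1.78 in the first run alone and 2.25 in the second alone.

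The follistatin relative Fstl1 was higher by 0.26 (SE 0.053, adjusted p = 0.00474) and the activin antagonist follistatin, Fst, by 0.22 (SE 0.0577, adjusted p = 0.0237). Ltbp1, which tethers latent TGF-beta to the matrix, was lower in the mutant (-0.53, SE 0.112, adjusted p = 0.00563). Fst also rose with irradiation, by 0.21 (SE 0.0577, adjusted p = 0.0258), the 1 call of 21 there, against 7.51% of all probe sets. The genotype call of Fst was lost within the first run and when array medians were centred, and its irradiation call within the second run. Both Fst calls were lost on leaving out any 1 of several extracts, 4 for genotype and 6 for irradiation, with adjusted p of up to 0.0545 and 0.055. For genotype these were replicate 4 of irradiated mutant, 3 and 4 of unirradiated mutant and 2 of unirradiated wild type. For irradiation they were replicate 4 of irradiated mutant, 2 of unirradiated mutant, 1 and 4 of irradiated wild type and 1 and 2 of unirradiated wild type. The list medians were 0.12 for genotype and 0.04 for irradiation, against 0.01 over all probe sets for both.

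Of 24 measured SMADs and intracellular regulators, irradiation raised 2 and lowered 2 on average, where 7.51% of all probe sets were called, and the list median was 0.02, against 0.01 over all. With the block 4 were raised and 5 lowered, against 14.9% of all. Smurf1, a ubiquitin ligase for SMADs and type I receptors, rose by 0.44 (SE 0.081, adjusted p = 0.00771), and Tgif1, a SMAD corepressor, by 0.30 (SE 0.0764, adjusted p = 0.0151). The ubiquitin ligases Nedd4l and Trim33 fell by 0.26 (SE 0.0698, adjusted p = 0.0201) and 0.19 (SE 0.0475, adjusted p = 0.0142). Within a single number run Nedd4l and Trim33 were not called in either run, Smurf1 not in the second and Tgif1 not in the first, and the call of Smurf1 was also lost after quantile normalization. In the averaged genotype comparison limma called 0 of 24, against 6.25% of all probe sets. At an unadjusted p under 0.05, 5 of 24 passed, against 19.1% of all. The 2 with the lowest p were Strap, a receptor-associated protein (-0.15, SE 0.0499, adjusted p = 0.0739, and 0.0241 with the block), and the inhibitory Smad6 (0.29, SE 0.101, adjusted p = 0.0799, and 0.0141 with the block). Map3k7 was called lower with the block too (-0.24, adjusted p = 0.0265), where 13.9% of all probe sets were called.

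Of 23 measured TGF-beta and activin targets, 2 were higher and 0 lower in the mutant on average, against 6.25% of all probe sets called, and the list median was 0.15, against 0.01 over all. Lox, the collagen cross-linking lysyl oxidase, was higher by 0.23 (SE 0.0377, adjusted p = 0.000671) and Tsc22d1, a TGF-beta-stimulated leucine zipper gene, by 0.20 (SE 0.0456, adjusted p = 0.00832). Within the first number run neither was called, and that of Tsc22d1 was also lost when array medians were centred. With the replicate block 12 were higher and 1 lower, against 13.9% of all. Plod2, a collagen lysyl hydroxylase, rose with irradiation by 0.54 on average (SE 0.111, adjusted p = 0.00431). It was the 1 of 23 called, against 7.51% of all probe sets. In the mutant alone it rose by 0.63 (adjusted p = 0.0298), lost without replicate 2, 3 or 4 of irradiated mutant or replicate 1 or 2 of unirradiated mutant, with an adjusted p of up to 0.101. With the block, averaged irradiation also raised Il11 (0.32, adjusted p = 0.00554) and lowered Postn (-0.14, adjusted p = 0.0234), against 14.9% of all.

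Of 18 BMP targets 17 were matched and 12 were measured. Among these 12, Id4 and Id3, inhibitors of basic helix-loop-helix factors, were higher in the mutant. The differences were 0.72 (SE 0.14, 1.64-fold, adjusted p = 0.0032) and 0.35 (SE 0.0853, adjusted p = 0.014). Id4 averaged 10.08 ± 0.327 in irradiated mutant, against 9.36 ± 0.181 in irradiated wild type arrays, and 10.38 ± 0.42 in unirradiated mutant, against 9.67 ± 0.252 in unirradiated wild type arrays (SD, n = 4 each). They were the 2 called, against 6.25% of all probe sets. The list median was 0.23 for genotype, and with the block 6 were higher and 0 lower, against 13.9% of all. For irradiation the list median was -0.20, and limma called 0 of 12 on average, against 7.51% of all (0 up and 3 down with the block, against 14.9%). At an unadjusted p under 0.05, 4 of 12 passed, against 18.3% of all. The 2 with the lowest p there were Smad6, which is on this list too (-0.30, SE 0.101, adjusted p = 0.0617, and 0.0107 with the block), and Id2 (-0.51, SE 0.202, adjusted p = 0.119, and 0.00211 with the block).

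**Figure D4:**
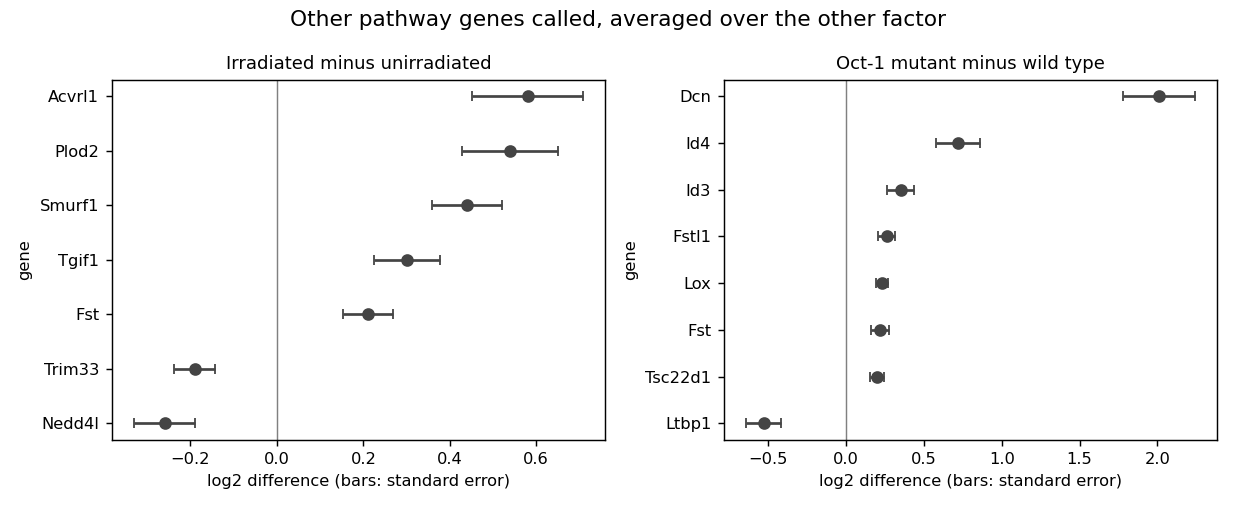
Log2 differences of the other pathway genes that were called, irradiated minus unirradiated averaged over genotypes (left) and Oct-1 mutant minus wild type averaged over irradiation (right), with bars of 1 standard error. On the left Acvrl1 is highest at 0.58, and on the right Dcn stands apart at 2.01 and Ltbp1 is the 1 gene below 0.

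Across the 16 array A samples, the gene probe sets whose levels ran most like those of 3 called member probe sets were listed among 12526, as a description of samples that share the same 4 groups and number runs. For Inhbb they were Pmm1, a phosphomannomutase (Pearson r = 0.971), Acad8, a mitochondrial dehydrogenase (0.965), and Siva1, a pro-apoptotic gene (0.96). For Tgfbi 1456250_x_at they were the homeobox gene Hoxc8 (0.947), its cofactor gene Meis1 (0.938) and the squalene epoxidase Sqle (0.938). For Tgfbi 1448123_s_at they were Cxxc5 (0.935), a zinc finger gene, Socs3 (0.918), a cytokine signalling inhibitor, and Trim25 (0.913), a ubiquitin ligase.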

How the data were processed

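RNA of 16 fibroblast extracts was read on 2 array types. The deposited values are log2 probe set levels made by the authors. Their range, 0.265 to 15.75 for array A and 0.097 to 15.51 for array B, fits base 2, while the sources used here do not name the summarisation method. No further scaling was applied. There were 22690 probe sets in the array A table and 22575 in that of array B, with 64 controls in each. The platform annotation named 1 gene for 20393 and 14674 probe sets, several for 691 and 245, and none for 1606 and 7656. Symbols were updated through gene identifiers. Probe sets with a mean of at least 4.97 (array A) or 3.36 (array B), the 40th percentile, were tested, 13576 and 13507. The number of arrays limits the precision.

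Each array type was fitted in limma 3.58.1 (R 4.3.3) with 4 group means, a variance trend and Benjamini-Hochberg adjustment over its tested probe sets. The script was tested on simulated data. Counts are summed over both array types. Pearson correlations and figures used Python 3.11.15 with pandas 2.3.3, numpy 2.4.6 and matplotlib 3.10.9. The genes, lists and tests were chosen with earlier results of these data known. All members are named through every probe set. Other pathway genes are named where called, or as the 2 with the lowest p per list in the averaged comparisons, and likeness is given for the 3 called member probe sets with the smallest adjusted p.

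Replicate numbers come from the descriptions, and the number runs from the titles. For 1 unirradiated mutant sample on array A the description gives no number. It was taken as replicate 1, the number described for the array B sample with the same title number. Deviations from the group means had a median correlation of 0.577 (0.32 to 0.72) between same-numbered samples for array A and of 0.442 (0.242 to 0.603) for array B. All were above 0.1, so the numbers were used as a block in an alternative fit and for number-matched pairs. The main fit had no block. Other numbers of the same run came nearly as close, with medians of 0.556 (0.238 to 0.712) and 0.403 (0.19 to 0.584). All correlations across runs were negative (-0.713 to -0.27 and -0.592 to -0.183). These correlations therefore cannot tell a pairing by number from a shared run. Alternatives were a replicate block, a number run block, each run alone, other filters, quantile normalization, median centring, no variance trend, robust variances, only the groups compared, and leaving out each extract. Correlations between replicates were 0.9758 to 0.9958 for array A and 0.9731 to 0.9959 for array B, and none was treated as a repeat of another.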

Additional observations from a re-analysis of the deposited data

Results flagged for a closer look

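Of 84 groups of 4 measured member values, 5 had 1 array far from the other 3, by Dixon's criterion on the gap to its neighbour over the group's range, and chance alone flags about 1 group in 20. Each of these arrays was a replicate 1. Tgfb2 probe set 1438303_at had 5.19 in irradiated mutant replicate 1, below the other 3, and Tgfbr1 probe set 1420894_at had 7.77 in the same extract, above the other 3. Inhbb probe set 1426858_at had 9.22 in irradiated wild type replicate 1, above 9.10, 9.10 and 9.09 in the other replicates. Bmpr1b probe set 1437312_at had 5.19 in unirradiated mutant replicate 1, above 4.75, 4.77 and 4.77. Bmpr1b probe set 1443720_s_at had 5.87 in irradiated wild type replicate 1, above the other 3.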

How the results depend on the processing

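Of 3864 recomputed member differences, 3514 kept their direction and their side of the threshold, 66 passed it only in the alternative, 47 lost their call and 237, called in neither fit, changed sign. With the replicate block, which pairs samples of the same number, the member counts were 4 for irradiation in wild type, 5 for genotype without irradiation, 6 for irradiation averaged over genotypes and 12 for genotype averaged over irradiation; it changed no member call other than those given above. With the number run as a block these counts were 4, 7, 5 and 12. Within the first number run the count was 1 for irradiation in the mutant and 0 for genotype with irradiation. Within the second it was 3 for irradiation in wild type and 5 for irradiation averaged over genotypes. Quantile normalization gave 2 for irradiation in wild type, and fitting only the groups compared gave 1 for genotype with irradiation. Leaving out 1 extract gave 1 to 2 calls for irradiation in wild type, 2 being reached without replicate 1 of irradiated mutant or replicate 2 of irradiated wild type, and 1 to 3 for genotype without irradiation, 1 being reached without replicates 2, 3 or 4 of unirradiated mutant or any replicate of unirradiated wild type. Over all probe sets the replicate block called 1937 for irradiation in the mutant and 1631 for genotype with irradiation, against 724 and 565 without it. The 4 member probe sets under the filter, 1 each of Tgfb1, Tgfbr2, Inhba and Inhbb, were tested only without the filter, where none was called in any of the 7 comparisons (lowest adjusted p = 0.119), and fewer samples enter the fits within 1 run.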
